A study of Mus musculus with 18 samples.

Results

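The 3 genes described here, Foxa1, Foxa2 and Foxa3, are the whole FoxA family of forkhead transcription factors; they were taken by symbol from a table of 24498 genes, and all 3 were among the 14711 genes with enough signal to be tested. They were measured by RNA sequencing in 18 libraries of cells from mouse embryos at embryonic day 7.5. All embryos were homozygous for a Foxa2 allele whose protein ends in a flexible linker and the red fluorescent protein tagRFP. In the ΔHx groups that protein also lacked 10 residues of an α-helix, and in the WT groups it was otherwise intact, so that WT here is a tagged line and not an unmodified one. A cell sorter split the cells of an embryo pool by tagRFP brightness, into High, brighter than any cell of heterozygous embryos, Mid, from above autofluorescence to the heterozygous maximum, and Neg, without the signal, 3 gates in all. The groups were ΔHx High, ΔHx Mid and ΔHx Neg, and WT High, WT Mid and WT Neg, with 3 libraries in each. About 10 embryos, of both sexes and of a mixed C57Bl6/J and CD-1 background, went into a sort, and RNA equal to that of 1000 cells into a library. The extra-embryonic part had been dissected away for genotyping. Libraries held 12302196 to 17194136 reads in genes, and values are normalised read counts unless stated.

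FoxA proteins bind DNA with a winged-helix domain that resembles a linker histone, and they are called pioneer factors because they can bind their sites in closed chromatin and make room for other factors. Foxa2 is the first of the family to be expressed in the mouse gastrula and is needed for the node, the notochord and the endoderm. Foxa1 and Foxa3 follow it, and in the gut and liver the 3 genes partly stand in for one another. Since cells were sorted on the FoxA2 protein itself, Foxa2 RNA between gates is given as a description without a test, while Foxa1 and Foxa3 RNA took no part in the sort.

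The sequence removed in ΔHx embryos is shown first, because it defines the genotype and because a paralog holds a related stretch. In the GENCODE annotation of mm10 the 30 codon bases lie in the last of 2 exons of Foxa2 at chr2:148043658-148043687 on the minus strand, and they encode residues 409 to 418 of a protein of 465. The aligned stretch of Foxa1 lies in its exon 2 of 2 at chr12:57542167-57542196, minus strand, and encodes residues 413 to 422 of 468. Capitals mark the 7 bases at which Foxa1 differs from Foxa2.
Foxa2 helix codons: ctcaaggcctacgaacaggtcatgcactac
Foxa1 helix codons: TtcaaggcAtacgaGcaggCGCtgcaGtac
Of the 10 residues that these codons encode, Foxa1 shares 6 with Foxa2. In the alignment of Foxa3, a protein of 353 residues, only 3 of the 10 residues had a partner, of which 0 were identical, and the rest fell in a gap. Over their whole length the proteins were 63.1% identical for Foxa1 and Foxa2, over 431 aligned residues, and 54.9% identical for Foxa3 and Foxa2, over 344. The removed bases are 1.27% of the 2370 exon bases of Foxa2, and a value per gene adds up the reads of all its exons. Such a value therefore gives the level of Foxa2 RNA and does not show whether the helix is present.

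Foxa2, on chromosome 2 from 148042877 to 148046969 of mm10, was high in High, intermediate in Mid and low in Neg in both genotypes. In ΔHx High it had 1848, 2078 and 2385 normalised counts, in ΔHx Mid 547, 611 and 1229, and in ΔHx Neg 62.5, 55.1 and 43.4. In WT High it had 2483, 1742 and 1556, in WT Mid 871, 812 and 621, and in WT Neg 40.6, 20.3 and 23.6. Within a genotype the 3 gates did not overlap. The mean in High was 39.2 times that in Neg in ΔHx embryos and 68.4 times in WT embryos, and it was 2.64 times that in Mid in ΔHx embryos and 2.51 times in WT embryos. By mean the groups ran from ΔHx High through WT High, ΔHx Mid, WT Mid and ΔHx Neg to WT Neg, and the genotypes overlapped within High and within Mid.

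Foxa1, on chromosome 12 from 57540628 to 57546916, had the same order of gates as Foxa2. Its values were 503, 778 and 627 in ΔHx High, 260, 247 and 376 in ΔHx Mid, and 21.2, 12.1 and 6.19 in ΔHx Neg. They were 1181, 1047 and 594 in WT High, 373, 311 and 176 in WT Mid, and 18.5, 2.03 and 2.72 in WT Neg. No gate overlapped with another within a genotype, and the genotypes overlapped within every gate. The Neg values rest on few reads, 19, 13 and 6 in ΔHx Neg and 15, 2 and 3 in WT Neg.

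Foxa3, on chromosome 7 from 19013284 to 19023538, had a different profile, with its highest means in Mid. It had 259, 284 and 176 normalised counts in ΔHx High, 277, 354 and 396 in ΔHx Mid, and 22.3, 49.5 and 26.8 in ΔHx Neg. It had 222, 314 and 276 in WT High, 226, 328 and 359 in WT Mid, and 16.0, 11.2 and 8.15 in WT Neg. High and Mid overlapped in both genotypes, so that the order ΔHx Mid, WT Mid, WT High, ΔHx High holds for the means and not beyond the spread. Neg lay below both other gates in each genotype.

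**Figure D1:**
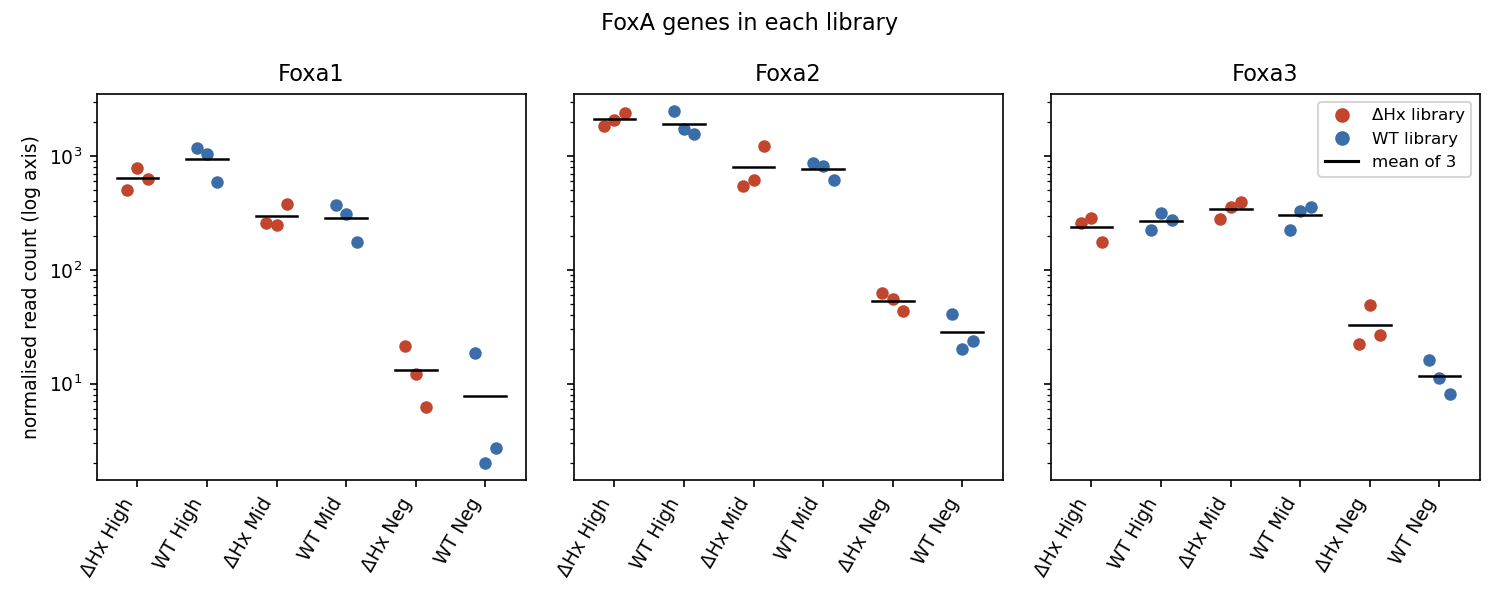
Normalised read counts of Foxa1, Foxa2 and Foxa3 on a log axis, 1 point per library and a bar at each group's mean, for ΔHx and WT in the gates High, Mid and Neg. Foxa1 and Foxa2 step down from High to Neg in both genotypes, while the Foxa3 points of High and Mid overlap and ΔHx Neg lies above WT Neg.

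The gates were compared with limma, on the log2(value + 1) scale and with p-values adjusted by Benjamini-Hochberg over all 14711 tested genes. Both genes that the sort did not use, Foxa1 and Foxa3, were higher in High than in Neg in each genotype, where 21.5% of tested genes were called higher in ΔHx embryos and 22.6% in WT embryos. Both were also higher in Mid than in Neg, where 17.9% of genes were called higher in ΔHx embryos and 17.4% in WT embryos. The gates hold different mixtures of cells, and in bulk RNA fewer cells of a type and less RNA per cell cannot be told apart.

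The Foxa1 difference between High and Neg was 5.61 in ΔHx embryos (95% interval 4.50 to 6.72, adjusted p = 8.99e-08 by limma) and 7.23 in WT embryos (6.12 to 8.34, adjusted p = 2.55e-09 by limma). Between Mid and Neg the Foxa1 difference was 4.50 in ΔHx embryos (adjusted p = 3.31e-06 by limma) and 5.51 in WT embryos (adjusted p = 2.31e-07 by limma). Foxa3 differed less in log2 terms between High and Neg, by 2.88 in ΔHx embryos (2.24 to 3.52, adjusted p = 4.02e-07 by limma) and by 4.44 in WT embryos (3.80 to 5.08, adjusted p = 1.14e-09 by limma). Its difference between Mid and Neg was 3.41 in ΔHx embryos (adjusted p = 1.08e-07 by limma) and 4.60 in WT embryos (adjusted p = 1.84e-09 by limma). For both genes the difference was thus numerically larger in WT embryos, and the tests of that gap between genotypes are given below with the genotype comparisons.

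Between the fluorescent gates, where 13.3% of genes were called higher in High than in Mid in ΔHx embryos and 12.1% in WT embryos, only Foxa1 in WT embryos passed the threshold. Foxa1 was higher in High by 1.11 in ΔHx embryos (0.0035 to 2.22, adjusted p = 0.134 by limma) and by 1.72 in WT embryos (0.61 to 2.83, adjusted p = 0.0223 by limma). The ΔHx difference was called with the same libraries by edgeR (adjusted p = 0.0211) and by limma without the other groups (adjusted p = 0.00321). The WT call was lost without WT High replicate 1 (adjusted p = 0.0895 by limma), WT High replicate 2 (0.0689) or WT Mid replicate 3 (0.0889). Foxa3 differed between High and Mid by -0.53 in ΔHx embryos (-1.17 to 0.11, adjusted p = 0.223 by limma) and by -0.16 in WT embryos (-0.80 to 0.48, adjusted p = 0.768 by limma).

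Because the mean of Foxa1 was higher in High than in Mid and that of Foxa3 lower, the ratio of the pair was read within libraries, a ratio chosen after the values were seen. The log2 ratio of Foxa3 to Foxa1 differed between High and Mid by -1.64 in ΔHx embryos and by -1.87 in WT embryos. The mean of the pair of differences was -1.76, and it is given as a description, with no test. A ratio within a library is free of the scaling between libraries, and it does not show which of the genes changed.

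Put on a common scale of counts per kilobase of exon, Foxa2 was the most abundant FoxA RNA in 17 of 18 libraries. Of the summed FoxA signal per kilobase in High, Foxa2 held 74.1% ± 4.23 in ΔHx embryos and 66.0% ± 4.37 in WT embryos (SD, n = 3 each). In Mid it held 55.2% ± 6.57 in ΔHx embryos and 57.7% ± 4.47 in WT embryos. In Neg it held 53.5% ± 7.56 in ΔHx embryos and 60.6% ± 5.93 in WT embryos, and the summed signal was 42.7 ± 8.95 counts per kilobase in ΔHx Neg and 20.0 ± 9.16 in WT Neg.

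The second place went to a different gene in each fluorescent gate. In High, Foxa1 held 15.9% ± 2.43 in ΔHx embryos and 22.7% ± 3.94 in WT embryos, while Foxa3 held 9.97% ± 2.83 in ΔHx embryos and 11.3% ± 3.61 in WT embryos. In Mid, Foxa1 held 15.3% ± 2.00 in ΔHx embryos and 15.1% ± 4.12 in WT embryos, while Foxa3 held 29.5% ± 5.50 in ΔHx embryos and 27.2% ± 8.56 in WT embryos. Foxa1 was above Foxa3 in all 6 High libraries and Foxa3 above Foxa1 in 5 of 6 Mid libraries, the exception being WT Mid replicate 1 with 18.8% for Foxa3 and 19.0% for Foxa1. In Neg, Foxa3 held 37.4% ± 11.4 in ΔHx embryos and 30.1% ± 6.38 in WT embryos, and in ΔHx Neg replicate 2 it held 47.5% against 45.4% for Foxa2.

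**Figure D2:**
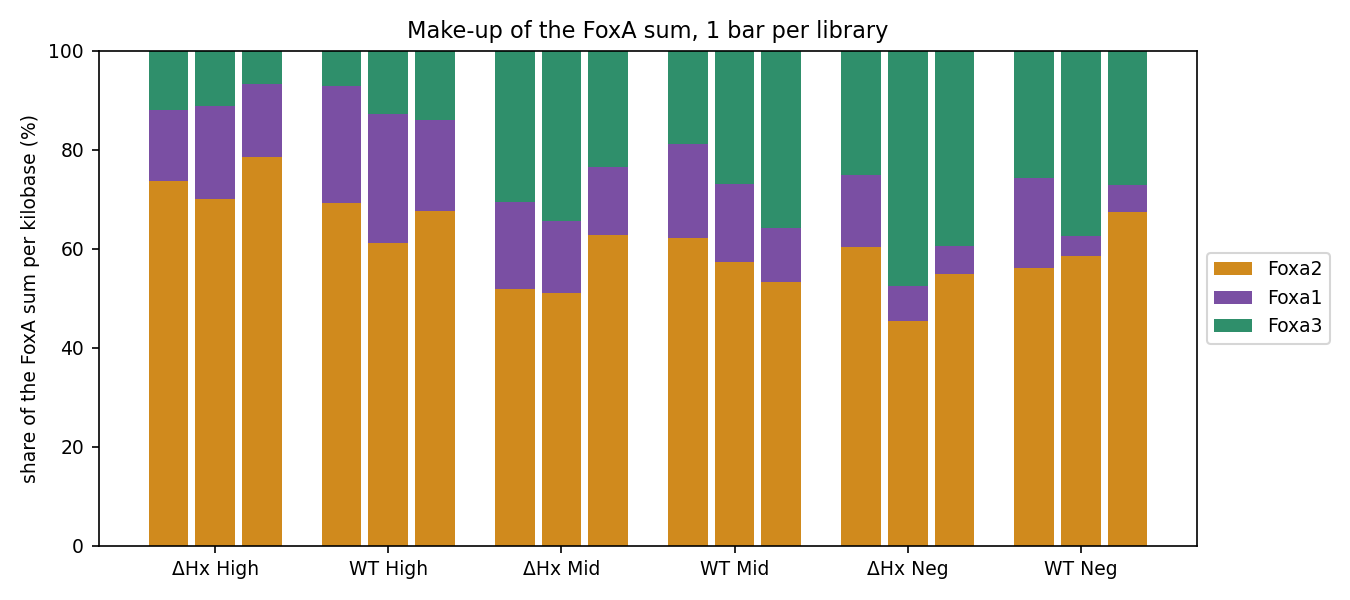
Share of each FoxA gene in the summed FoxA signal per kilobase of exon, in percent, for each of the 18 libraries, with ΔHx left of WT in each gate. Foxa2 takes the largest share in 17 of 18 libraries, Foxa1 is second in High, and Foxa3 takes 18.8% to 35.9% in Mid.

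The question of the genotype comparison was whether the RNA of the family differed in embryos whose FoxA2 lacked the helix. Cells were sorted on the tagged FoxA2 protein, so a gate compares cells already chosen by that protein's brightness. A genotype difference in FoxA2 level could shift cells between gates and need not show within them, which was not tested. The same limit holds for the interactions and the ratios to Foxa2. Of the 9 comparisons of a FoxA gene between genotypes within a gate, 0 passed an adjusted p of 0.05 by limma, where 0.122% of tested genes were called in High, 0.401% in Mid and 0.245% in Neg. At an unadjusted p under 0.05, 2 of the 9 were past the threshold, Foxa2 and Foxa3 in Neg. Of all tested genes 7.86% were past it in High, 7.96% in Mid and 4.17% in Neg. By edgeR 0 of the 9 were called and by DESeq2 1 was, Foxa3 in Neg.

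In High, where Foxa2 is most abundant, its level averaged 2104 ± 269 in ΔHx embryos and 1927 ± 490 in WT embryos (SD, n = 3 each), a log2 difference of 0.15 with an interval of -0.43 to 0.73 (adjusted p = 0.927 by limma). That interval reaches from 0.741 to 1.66 times the WT level. Foxa1 averaged 636 ± 138 in ΔHx High and 940 ± 308 in WT High, a difference of -0.53 (-1.64 to 0.58, adjusted p = 0.846 by limma). The fit has 1 spread per gene over all 6 groups, so the Foxa1 intervals in High and Mid include the scatter of Neg. On the log2 scale Foxa1 deviated from its group mean by -0.99 to 1.69 in WT Neg and by -0.60 to 0.39 in WT High. Foxa3 averaged 240 ± 56.8 in ΔHx High and 270 ± 46.3 in WT High, a difference of -0.19 (-0.83 to 0.45, adjusted p = 0.910 by limma). The libraries of the genotypes overlapped for all 3 genes.

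In Mid the means of the genotypes lay closer together than the libraries within a genotype. Foxa2 averaged 796 ± 377 in ΔHx embryos and 768 ± 131 in WT embryos, a difference of -0.031 (-0.61 to 0.55, adjusted p = 0.996 by limma). The Foxa1 difference was 0.079 (-1.03 to 1.19, adjusted p = 0.996 by limma) and that of Foxa3 was 0.18 (-0.46 to 0.82, adjusted p = 0.967 by limma). The sign of these 3 differences depended on single libraries. ΔHx Mid replicate 3 had the highest value of all 3 genes within its group.

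In Neg all 3 means were higher in ΔHx embryos, at a low level. Foxa3 averaged 32.9 ± 14.5 in ΔHx Neg and 11.8 ± 3.97 in WT Neg, a difference of 1.37 (0.73 to 2.01, adjusted p = 0.0975 by limma). Foxa2 averaged 53.6 ± 9.65 in ΔHx Neg and 28.2 ± 10.9 in WT Neg, a difference of 0.95 (0.37 to 1.53, adjusted p = 0.405 by limma). Foxa1 averaged 13.2 ± 7.56 in ΔHx Neg and 7.74 ± 9.30 in WT Neg, a difference of 1.09 (-0.024 to 2.20, adjusted p = 1.00 by limma). With 1 library left out the Foxa1 difference ran from 0.59 to 1.93, and it was 1.93 without WT Neg replicate 1 (adjusted p = 0.0602 by limma). The genotypes did not overlap for 2 of the 3 genes, Foxa2 and Foxa3, and 6.7% of tested genes had all ΔHx Neg libraries above all WT Neg libraries.

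The Foxa3 difference in Neg depended on the test and on 1 library. It was called by DESeq2 (log2 1.53, adjusted p = 0.0252) and by limma without WT Neg replicate 1 (1.60, adjusted p = 0.0394), and not by edgeR (1.51, adjusted p = 0.258). It rests on 20, 53 and 26 Foxa3 reads in ΔHx Neg and 13, 11 and 9 in WT Neg. Foxa2 had 56, 59 and 42 reads in ΔHx Neg and 33, 20 and 26 in WT Neg. Cells with the fluorescent protein were sorted away from this gate. The summed level of 8 node and notochord markers was 2673, 3373 and 1741 in ΔHx Neg and 3396, 1703 and 1804 in WT Neg, and that of 10 visceral endoderm markers was 1553, 3199 and 3132 in ΔHx Neg and 2069, 2434 and 2456 in WT Neg. Both sums overlapped between genotypes, and none of these markers was at 0 in all 3 libraries of a group. The node sum was mostly T (brachyury), also a gene of the primitive streak, which made up 85.9% to 88.1% of it in ΔHx Neg and 91.4% to 93.6% in WT Neg. Without T, a reading chosen after the values were seen, the other 7 markers summed to 376, 457 and 206 in ΔHx Neg and 291, 125 and 116 in WT Neg. The ΔHx minus WT difference in Neg was 4.31 for Shh, which was called, and, without a call, 1.99 for Noto, 1.55 for Foxj1, 1.27 for Dynlrb2, 0.88 for Nog, 0.72 for Chrd, 0.10 for T and 0.0092 for Dnah11. The sum without T overlapped between genotypes as well. Except for T and Dnah11, which differed little, node markers thus had higher means in ΔHx Neg together with the FoxA genes. Their part in the result was not tested.

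**Figure D3:**
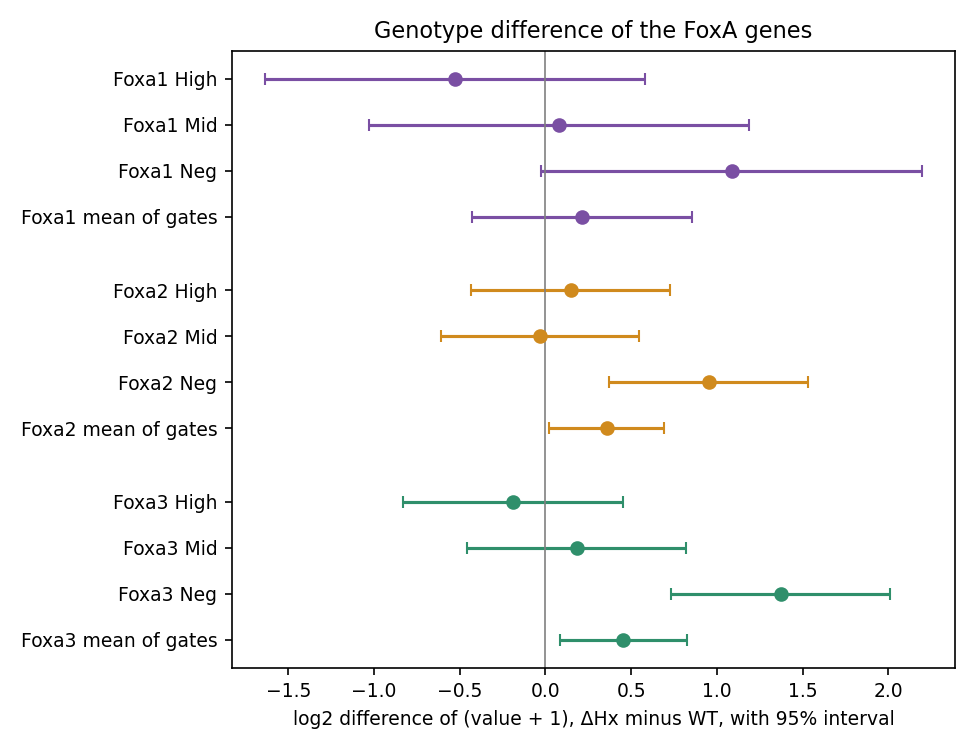
Difference of ΔHx minus WT on the log2(value + 1) scale for each FoxA gene in High, Mid and Neg and averaged over the gates, with 95% intervals from limma. In High and Mid all 6 intervals include 0, and in Neg those of Foxa2 (0.37 to 1.53) and Foxa3 (0.73 to 2.01) do not, although neither passed the adjusted threshold.

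Whether the genotype difference itself varied with the gate was tested as an interaction. For Foxa3 the log2 difference in High minus that in Neg was -1.56 (interval -2.47 to -0.66, adjusted p = 0.998 by limma, 0.00186 before adjustment). For Foxa1 the same contrast was -1.61 (-3.18 to -0.043, adjusted p = 0.998 by limma) and for Foxa2 -0.81 (-1.63 to 0.015, adjusted p = 0.998 by limma). Of the 9 interactions of a FoxA gene 0 were called by limma, edgeR or DESeq2 or under any other setting tried, with 4 at an unadjusted p under 0.05 by limma, a threshold that 3.15% of tested genes passed in High against Neg, 4.32% in Mid against Neg and 6.13% in High against Mid. The 4 were Foxa1 and Foxa3 in High against Neg and Foxa2 and Foxa3 in Mid against Neg. Each of them contains the genotype difference in Neg given above, so they are not separate from it or from one another. Over all genes limma called 0% in High against Neg, 0.0068% in Mid against Neg and 0.0136% in High against Mid. For High against Neg that is 0 genes, with 463 at an unadjusted p under 0.05, 0 called by edgeR and 6 by DESeq2, of which 2 were higher and 4 lower.

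Averaged over the gates, where limma called 0.843% of genes, 0 of the 3 FoxA genes passed: the difference was 0.21 for Foxa1 (adjusted p = 0.897 by limma), 0.36 for Foxa2 (0.022 to 0.69, adjusted p = 0.477 by limma) and 0.45 for Foxa3 (0.085 to 0.82, adjusted p = 0.363 by limma). Exact permutation of the genotypes within gates, two-sided over 8000 arrangements, gave p = 0.580 for Foxa1, 0.112 for Foxa2 and 0.0863 for Foxa3. Adjusted over the 5 such averages computed, these were 0.697, 0.281 and 0.281 by exact permutation. The limma averages and the permutation treat the gates as independent, although libraries of different gates may come from the same embryo pool. The values of Foxa2 and Foxa3 come mostly from Neg, since in High and Mid their differences were between -0.19 and 0.18.

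The balance of the family between genotypes was compared by ratios within a library. The ratio of Foxa1 to Foxa2 counts in High was 0.272, 0.374 and 0.263 in ΔHx embryos and 0.476, 0.601 and 0.382 in WT embryos, so that all ΔHx libraries lay below all WT libraries. Its log2 difference was -0.67, with an exact two-sided permutation p of 0.1, the smallest that 3 against 3 libraries allow, and 0.6 after adjustment over 6 such ratios. In Mid the log2 difference of that ratio was 0.11 and in Neg 0.13, and over the gates it averaged -0.14 (exact permutation p = 0.565). The ratio of Foxa3 to Foxa2 differed by 0.10 on average (exact permutation p = 0.697).

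Within groups, Foxa1 and Foxa2 varied together from library to library and Foxa3 did not follow them. As deviations from the group mean on the log2 scale, Foxa1 and Foxa2 lay on the same side in 16 of 18 libraries, with r = 0.797 and rho = 0.853. Foxa1 and Foxa3 lay on the same side in 10 libraries (r = 0.187) and Foxa2 and Foxa3 in 8 (r = 0.116). Without the 6 Neg libraries, whose counts are low, the r of Foxa1 and Foxa2 was 0.739 over 12 libraries. That of Foxa3 was then -0.219 with Foxa1 and -0.125 with Foxa2. By gate, over 6 libraries each, the r of Foxa2 and Foxa3 was -0.712 in High, 0.213 in Mid and 0.405 in Neg. The r of Foxa1 and Foxa3 was -0.072 in High, -0.360 in Mid and 0.378 in Neg. The points of a library share its cells, its depth and its scaling, and deviations within a group sum to 0. The 18 libraries are thus not independent points, and these correlations are a description. For both Foxa1 and Foxa2, WT replicate 1 lay above its group mean in all 3 gates and WT replicate 3 below it. No ΔHx replicate kept to the same side in all gates for both genes. In WT High, replicate 1 had the highest Foxa1 and Foxa2 and the lowest Foxa3, and in WT Mid replicate 1 did so too.

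**Figure D4:**
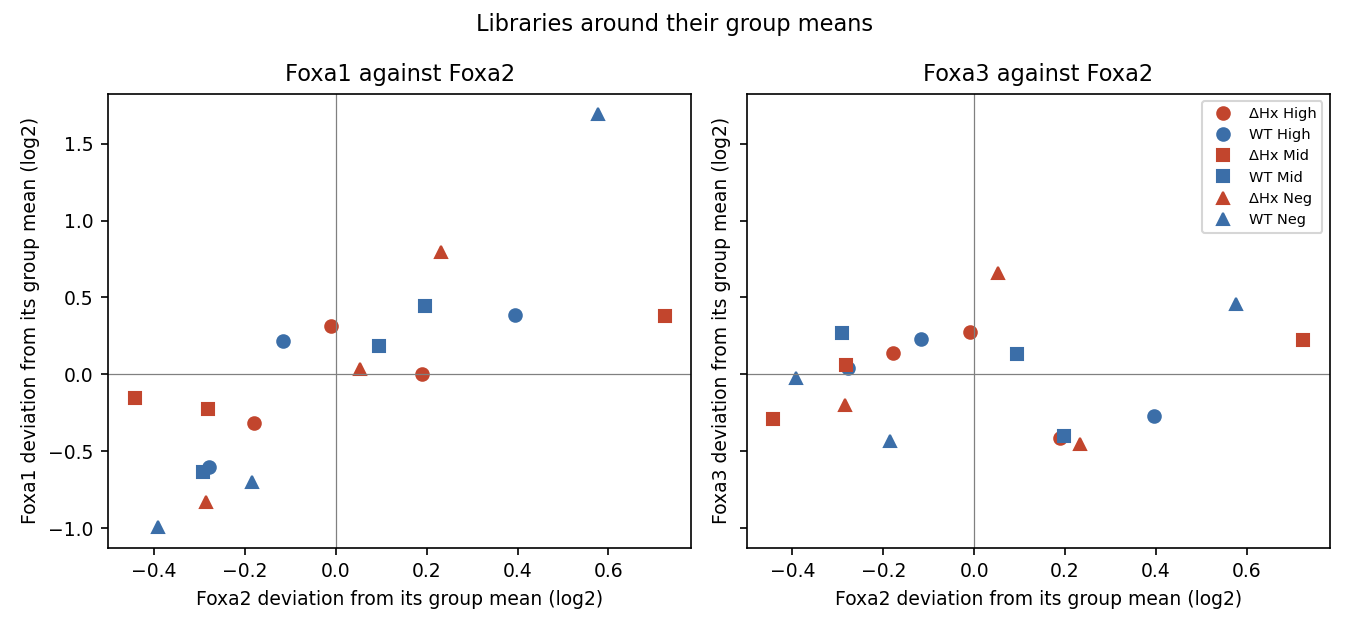
Deviation of each library from its group mean on the log2(value + 1) scale, for Foxa1 (left) and Foxa3 (right) on the vertical axes against Foxa2 on the horizontal axes, 1 point per library with colour for genotype and shape for gate. Foxa1 and Foxa2 lie on the same side of 0 in 16 of 18 libraries, and Foxa3 and Foxa2 in 8.

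Over the 18 libraries the genes most like each member were found by Pearson's r of log2 values, named clones left out. For Foxa1 they were Dgkk (r = 0.988), Enkur (0.984), Tspan7 (0.974), Egflam (0.973) and Tcf7l2 (0.972). For Foxa2 they were Dgkk (r = 0.988), Lrig3 (0.984), Tspan7 (0.982), Flrt3 (0.982) and Egflam (0.982). Foxa1 and Foxa2 thus had 3 of 5 genes in common, Dgkk, a diacylglycerol kinase, Tspan7, a tetraspanin, and Egflam, an extracellular matrix protein. For Foxa3 they included Cpn1, a subunit of carboxypeptidase N (r = 0.979), Tmprss2, a membrane protease (0.976), Fuca1, a fucosidase (0.972), and Slc16a1, a monocarboxylate transporter (0.971), and none of these 4 was among the genes most like either paralog. The libraries fall into 3 gates, which every such correlation contains. These names depend on the measure. Of each member's 5 genes by Pearson's r, 0 were also among the top 5 by Spearman's rho for Foxa1, 0 for Foxa2 and 1 for Foxa3.

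The genes beside the members on the chromosome were read for comparison. Ttc6 starts 17197 bases from Foxa1, and its levels were 109 ± 31.5 in ΔHx High, 66.2 ± 12.8 in ΔHx Mid and 1.97 ± 1.71 in ΔHx Neg. They were 140 ± 37.4 in WT High, 52.1 ± 20.8 in WT Mid and 8.31 ± 7.18 in WT Neg, the same order of gates as Foxa1 (r = 0.899 over 18 libraries). Mipol1, at 43429 bases on the other side, did not step with the gates (r = 0.0674). Sympk, which encodes a scaffold of the RNA cleavage machinery, begins 839 bases from Foxa3 and lay between 969 and 1277 in all 6 group means (r = 0.630). The other 7 tested genes within 100 kilobases of Foxa3 were Nova2, Mypop, Irf2bp1, Dmwd, Dmpk, Six5 and Fbxo46, with r to Foxa3 of -0.406 to 0.605. No annotated gene overlapped a member.

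The promoters of the members were searched for forkhead motifs, since the family binds such letters. The windows, from RefSeq on GRCm38.p6, ran from 250 bases before to 50 after each start: 1 for Foxa1, 3 for Foxa2 and 1 for Foxa3. One motif, TGTTTAC, occurs on either strand in 3.65% of 32851 promoters of this length. A variant, TGTTTGC, occurs in 5.07% of them. The third, TATTTAC, occurs in 3.04%. All have the same length, so 1 position on a strand can match only 1 of them. Foxa1 held the only match, TGTTTAC on the reverse strand, 141 to 135 bases upstream of its RefSeq start at base 57546111, shown in capitals within chr12:57546220-57546279, minus strand.
Foxa1 promoter: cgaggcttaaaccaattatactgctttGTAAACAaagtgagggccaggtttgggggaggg
That start lies inside the GENCODE span of Foxa1, which ends at 57546916, and the match falls in an intron of 1 of its GENCODE transcripts. The windows of Foxa2 and Foxa3 held 0 matches to these letters.

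Genes that act before, with or after the family were read from 6 lists, and between genotypes 4 of their tested members passed the limma threshold in any gate. As background to each list's counts, 0.122% of all tested genes were called in High, 0.401% in Mid and 0.245% in Neg. Signals upstream of the family come first: of 13 tested genes of the Nodal pathway, which induces Foxa2 in the gastrula, 1 rose and 0 fell in Neg, against the 0.245% of all genes called there, and 0 were called in High or Mid. That gene was Nodal itself, with 114, 117 and 152 normalised counts in ΔHx Neg and 43.1, 84.2 and 66.1 in WT Neg, a log2 difference of 1.01 (adjusted p = 0.0392 by limma). The groups did not overlap, but the call was lost in 5 of 6 fits that left out a library (adjusted p up to 0.237 by limma) and by edgeR (0.111). The median difference of the 13 genes in Neg was 0.067, against 0.0090 over all tested genes.

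Of 16 node, notochord and anterior mesendoderm genes, many of which depend on Foxa2, 0 were called in High, 1 fell in Mid and 1 rose in Neg, where 0.122% of all genes were called in High, 0.401% in Mid and 0.245% in Neg. Shh, the signalling protein of the notochord and a known FoxA target, rose in Neg: it had 45.8, 54.1 and 20.6 normalised counts in ΔHx Neg and 6.16, 0.00 and 0.00 in WT Neg, a log2(value + 1) difference of 4.31 (adjusted p = 0.00323 by limma). The 3 WT libraries held 5 Shh reads in all and the 3 ΔHx libraries 119. The call was lost by edgeR (adjusted p = 0.124) and by limma on the Neg groups alone (0.0711). Nog, a secreted BMP antagonist, fell in Mid, with 52.1, 63.4 and 31.9 in ΔHx Mid and 732, 114 and 151 in WT Mid (log2 difference -2.27, adjusted p = 0.0277 by limma). It was not called without any 1 of the ΔHx Mid libraries (adjusted p up to 0.131 by limma), and without WT Mid replicate 1 the difference was -1.45 (adjusted p = 0.0339 by limma). That library also had the highest summed level of parietal endoderm markers, given below with Sox7. The list's median difference was -0.044 in High, -0.18 in Mid and 0.39 in Neg, against medians of all genes of 0.00021 in High, 0.0042 in Mid and 0.0090 in Neg.

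Of 14 tested endoderm transcription factors of 16 listed, 1 fell in Mid, where 0.401% of all genes were called, and 0 were called elsewhere. Sox7, a SoxF factor of parietal endoderm and endothelium, had 53.0, 20.5 and 88.9 in ΔHx Mid and 1478, 194 and 388 in WT Mid (log2 difference -3.36, adjusted p = 0.0347 by limma). The call was lost without WT Mid replicate 1 (-2.55, adjusted p = 0.197 by limma), among other libraries. That library also had the highest summed level of 10 parietal endoderm markers, of which Sox7 is one: 17285, 16793 and 22737 in ΔHx Mid and 231387, 39576 and 62991 in WT Mid. The part of these markers in the result was not tested. Without that library the difference in Mid was 0.30 for Foxa1, 0.067 for Foxa2 and -0.018 for Foxa3, and 0 of the 3 were called.

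Secreted proteins of liver and yolk sac endoderm whose genes are known FoxA targets made up a list of 21, of which 11 were tested. Between genotypes 0 were called in each gate and on average, with a median difference of -1.0 in High, 0.053 in Mid and 0.043 in Neg. In High the single values ran from -2.10 to 0.079. The summed level of 10 visceral endoderm markers, of which several are on this list, was 2639, 5918 and 1894 in ΔHx High and 5130, 10048 and 4339 in WT High, and its part in that median was not tested. Between gates these genes stood apart from the Foxa1 profile: 10 of 11 were higher in Mid than in Neg in both genotypes, where 17.9% of genes were called higher in ΔHx embryos and 17.4% in WT embryos, and 10 of 11 were lower in High than in Mid in both, where 12.3% of genes were called lower in ΔHx embryos and 12.4% in WT embryos. Apoa1, an apolipoprotein, averaged 515 ± 285 in ΔHx High, 8613 ± 1442 in ΔHx Mid and 345 ± 152 in ΔHx Neg, and 1103 ± 548 in WT High, 8237 ± 545 in WT Mid and 327 ± 40.3 in WT Neg. Trf, which encodes transferrin, averaged 89.2 ± 44.1, 729 ± 97.3 and 33.9 ± 8.27 in the High, Mid and Neg gates of ΔHx embryos, and 204 ± 18.1, 781 ± 200 and 49.8 ± 15.6 in those of WT embryos.

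Between gates the other lists differed from one another. All 16 node and notochord genes were higher in High than in Neg in both genotypes, where 21.5% of all genes were called higher in ΔHx embryos and 22.6% in WT embryos. Of 14 endoderm factors 6 were higher and 4 lower in High than in Neg in ΔHx embryos, where 21.1% of genes were called lower. In WT embryos 6 were higher and 3 lower, where 21.8% of genes were called lower. Between High and Mid, 0 of these factors were higher in High and 5 were lower, in each genotype. Of all genes 12.3% were called lower there in ΔHx embryos and 12.4% in WT embryos. Gata4 averaged 198 ± 43.6 in ΔHx High and 977 ± 147 in ΔHx Mid, and 269 ± 112 in WT High and 1986 ± 1228 in WT Mid. Sox17, a main endoderm factor, averaged 1570 ± 354 in ΔHx High, 1282 ± 131 in ΔHx Mid and 151 ± 17.3 in ΔHx Neg, and 1582 ± 194 in WT High, 1880 ± 176 in WT Mid and 130 ± 42.5 in WT Neg. Of the 13 Nodal pathway genes 5 were higher and 2 lower in High than in Neg in ΔHx embryos, and 4 were higher and 2 lower in WT embryos, beside the 21.5% higher and 21.1% lower of all genes in ΔHx embryos and the 22.6% higher and 21.8% lower in WT embryos.

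The proteins that FoxA factors work with or compete with were the last lists. Of 10 cofactors, among them the Groucho family of corepressors that binds FoxA2, 0 were called between genotypes in any gate, with medians of 0.016 in High, 0.086 in Mid and 0.034 in Neg. Between High and Neg, 6 were higher and 2 lower in each genotype, where of all genes 21.5% were higher and 21.1% lower in ΔHx embryos and 22.6% higher and 21.8% lower in WT embryos. Tle2, a Groucho corepressor, averaged 215 ± 75.0 in ΔHx High, 43.0 ± 15.5 in ΔHx Mid and 9.74 ± 3.00 in ΔHx Neg, and 202 ± 0.960 in WT High, 65.9 ± 15.4 in WT Mid and 8.81 ± 3.63 in WT Neg. Of 9 linker histone genes 7 were tested and 0 were called between genotypes, with medians of -0.33 in High, -0.00022 in Mid and 0.10 in Neg. H1f0, a replication-independent linker histone, was higher in High than in Neg by 0.95 in ΔHx embryos (adjusted p = 4.56e-08 by limma) and by 1.15 in WT embryos (adjusted p = 2.48e-09 by limma).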

How the data were processed

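The authors deposited 1 table of signal, the read counts of each gene divided by a size factor per library. The submitters' processing notes name the build mm10 and the tools STAR 2.5.2a, HTSeq 0.6.1, DESeq and DESeq2, without their roles. Which annotation was counted is not stated. Per the labels, SMART-Seq2 libraries were read from 1 end for 75 bases. All 440964 values were whole reads within 1e-06 after division by what 1 read is worth. The table's 5 HTSeq counters were left out of tests: they held reads outside features (7.17% to 12.1% of the total), ambiguous reads (0.495% to 0.756%) and reads with several placements (37.7% to 41.3%). Between 23.7% and 44.0% of reads in genes came from the ribosomal precursor Rn45s.

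Testing covered the 14711 genes that reached 10 in 3 or more libraries, with limma 3.58.1 in R 4.3.3 on log2(value + 1), a scale that understates changes of low genes. The model had 6 group means over all 18 libraries and a trend in the variance; tests were two-sided with a threshold of 0.05 on the adjusted p. edgeR 4.0.16 and DESeq2 1.42.0 were run on the recovered reads. The limma step was tried on simulated counts for ΔHx minus WT in High only, with the same dispersion for every gene. It found 83 of 100 genes changed 2-fold and 99 of 100 changed 4-fold, with 15 false among 197 calls. The comparison in Neg, with its few reads, was not tried in this way. Also tried were a filter at 50 or none, pseudocounts of 5 and 0.5, equal totals without Rn45s, quantile normalisation, the compared groups alone, a replicate block, and each library left out. Permutation tests used scipy 1.17.1. Proteins were translated from GENCODE transcripts and aligned globally with Biopython 1.88. Promoters are those of RefSeq.

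The members, the lists and the tests were chosen with earlier results of these data known. Named genes are the members, the 5 genes most like each (1 is not reported here), genes within 100 kilobases of a member that were tested, list members called between genotypes and up to 2 of each list between gates. The labels call the libraries biological replicates of pooled embryos; whether equal numbers shared a litter or a day is not stated. Intervals are those of limma over libraries; reads of single libraries carry counting error as well, for which no interval is given.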

Additional observations from a re-analysis of the deposited data

How the results depend on the processing

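Of 36 results on the FoxA genes, recomputed in 674 alternative values, most kept their direction and their side of the threshold. With the replicate block the Foxa3 difference in Neg was 1.37 (adjusted p = 0.0777 by limma), the log2 ratio of Foxa1 to Foxa2 averaged -0.14 (exact permutation p = 0.402) and that of Foxa3 to Foxa2 0.10 (exact permutation p = 0.707), and no call on a FoxA gene changed. Libraries with equal numbers were not taken as pairs. Over genes, their deviations correlated with r of 0.0156 to 0.291 within a genotype, over 0.1 in 5 of 18 pairs. All 18 of these values were positive, while between genotypes r was -0.171 to 0.0820. The replicate block joined equal numbers across genotypes, so it does not model a pool shared by the gates of a genotype. If gates shared a pool, the tests that average over gates or compare them treated dependent libraries as independent. The Foxa2 difference in Mid changed sign with equal totals (0.0093), edgeR (0.051) and DESeq2 (0.051). The Foxa3 difference in Neg was called by DESeq2 (1.53), and Foxa1 in High against Mid of ΔHx embryos by edgeR (1.11) and on the compared groups alone (1.11). The causes were not tested. With 1 library left out the ΔHx minus WT difference in Mid ran from -0.24 to 0.30 for Foxa1, -0.39 to 0.19 for Foxa2 and -0.018 to 0.33 for Foxa3. Likewise it ran from -0.33 to 0.018 for Foxa3 in High and from 1.04 to 1.60 in Neg, from 0.59 to 1.93 for Foxa1 in Neg, and the Foxa2 interaction of High against Mid from -0.042 to 0.54. Foxa1 in High against Mid of WT embryos ran from 1.40 to 2.02, the averaged log2 ratio of Foxa1 to Foxa2 from -0.24 to 0.042, that of Foxa3 to Foxa2 from -0.013 to 0.21, and that of Foxa3 to Foxa1 between High and Mid from -1.97 to -1.53. Averages over the gates use all groups, so a fit of the compared groups alone is the same fit for them and was not made.

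Over all genes, 18 were called in High, against 3 on the compared groups alone and 84 by DESeq2, of which 37 were higher and 47 lower. In Mid 59 were called, against 3 on the compared groups alone and 179 by DESeq2. In Neg 36 were called, 20 higher and 16 lower, against 23 by edgeR, 9 higher and 14 lower, and averaged over the gates 124, against 302 by DESeq2. With 1 library left out the count ran from 8 to 21 in High, 13 to 132 in Mid, 10 to 43 in Neg and 73 to 159 on average. It moved by over 1.5 times in High without ΔHx replicate 1 (10) or 3 (8) or WT replicate 2 (8), and in Mid without ΔHx replicate 1 (22) or 2 (13) or WT replicate 1 (37) or 2 (132). It did so in Neg without ΔHx replicate 1 (13) or 2 (12) or WT replicate 2 (20) or 3 (10), and on average without ΔHx Neg replicate 1 (73) or 2 (80). The share of higher genes among calls of High against Mid in WT embryos was 49.4%, and 60.9% with equal totals. That scaling moved the median gene by 0.11 in High against Neg of either genotype, and quantile normalisation moved it by -0.16 in ΔHx embryos and -0.24 in WT embryos, far less than the FoxA differences there. In Neg few reads limit what can be seen of the family.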
